A study of Mus musculus with 10 samples.

Results

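The 35 genes described here encode the contractile machinery of smooth muscle and the proteins that anchor it to the cell membrane, together with the transcription factors Srf and Myocd. They were taken by name from a list of 35 symbols, and all 35 were found among the 20579 genes of the deposited count table. All 35 also passed the filter on low counts that left 16710 genes for testing. The list names these genes as smooth muscle genes, and its defining markers were abundant in the libraries. Myh11, the smooth muscle myosin heavy chain, lay between 8343 and 14009 CPM (counts scaled to 1000000 per library after trimmed-mean scaling between libraries, TMM) in the wild-type libraries. Actg2, the enteric smooth muscle actin, lay between 16276 and 36153 CPM there.

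RNA was measured by sequencing in 10 libraries from mouse intestine at E18.5, late in gestation. The 5 p57WT libraries came from p57 wild-type embryos and the 5 p57KO libraries from p57 knockout embryos, all of the strain C57BL6/J / 129S4. p57 (p57Kip2) restrains the cell cycle by inhibiting cyclin-dependent kinases, and its gene is the imprinted Cdkn1c. In every library the cells had been sorted for green fluorescent protein (GFP) driven by the Hopx promoter after mechanical dissociation, so both groups carry this reporter, and the labels call the cells Hopx+ intestinal stem cells. Each library is numbered here from 1 to 5 within its genotype, as in the labels. The labels do not say which libraries shared a litter or a day, so the p-values measure the spread between these libraries.

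Smooth muscle shortens when myosin filaments pull on actin filaments. Calcium acts through calmodulin on myosin light chain kinase, and the kinase phosphorylates the myosin regulatory light chain. A phosphatase with a targeting subunit reverses the step, and an inhibitor holds the phosphatase back. Dense bodies and dense plaques, built from cross-linkers, intermediate filaments, talin, vinculin and the dystrophin complex, carry the force to the membrane. Many of the genes are activated by serum response factor (SRF) bound to a promoter element called the CArG box, with myocardin as its muscle coactivator. In the fetal gut the muscle coats form around the epithelial tube.

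Total counts ran from 8037887 to 26809231 per library. Cdkn1c lay between 0.153 and 2.06 CPM in the p57KO libraries and between 151 and 458 CPM in the p57WT libraries, as labelled. Hopx, the gene whose promoter drove the sort, was higher in p57KO (edgeR log2 fold change 1.08, SE 0.20, adjusted p = 0.00191). With libraries scaled to epithelial markers its log2 fold change was -0.254 (adjusted p = 0.431). That scaling moved the median of all genes tested from 0.08 to -1.24, so Hopx stayed above that median. Ribosomal RNA repeats were measured indirectly, as the summed counts of 3 features, Gm15564, Gm23935 and Mir6236, which are annotated as antisense or miRNA genes. They took 9.47% to 17.0% of the counts in p57KO 5 and in p57WT 1, 3, 4 and 5. In the other 5 libraries they took 0.0301% to 0.435%. The labels also carry the numbers 607 (p57KO 1 and 2 and p57WT 1), 608 (p57KO 3, 4 and 5) and 740 (p57WT 2 to 5), whose meaning they do not give. Genotype is therefore nearly tied to the label number and unevenly spread over the ribosomal RNA classes, and either was entered as a further term in separate fits. Only 607 holds both genotypes. With the label number as a term, the genotype difference thus rests on p57KO 1 and 2 against p57WT 1, which also differ in ribosomal RNA class. Among the 16710 genes tested, 2881 were lower and 3226 higher in p57KO at an adjusted p under 0.05.

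The smooth muscle genes were lower in the p57KO libraries, nearly without exception. Of the 35 genes, 34 were called lower and 0 higher, whereas 17.2% of all genes tested were called lower and 19.3% higher (edgeR quasi-likelihood test, Benjamini-Hochberg adjustment over all genes tested). The only gene not called was Ldb3, and all 35 had an unadjusted p under 0.05 in the direction of lower. The median log2 fold change of the 35 was -2.26, with values from -3.19 for Sgca to -1.39 for Ldb3, beside a median of 0.08 over all genes tested. At least 4-fold lower values were fitted for 24 of the 35, against 6.98% of all genes. Every p57KO library lay below every p57WT library for 32 of the 35, a pattern found in 12.7% of all genes, and the 3 exceptions were Actn1, Ldb3 and Cav1. The opposite order was found in 0 of the 35 and in 11.5% of all genes. In bulk RNA such as this, fewer smooth muscle cells in a library and less of the RNA per cell cannot be told apart.

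As a share of all counts, the 35 genes together made up 0.887%, 1.18%, 5.19%, 3.94% and 4.06% in p57KO 1 to 5. In p57WT 1 to 5 they made up 8.32%, 16.0%, 10.3%, 10.3% and 9.72%. The groups did not overlap: the mean share was 3.05% ± 1.91 (SD, n = 5) in p57KO and 10.9% ± 2.96 (SD, n = 5) in p57WT. Acta2 and Actg2, the actins of smooth muscle, alone gave 0.321% to 2.58% of the counts in p57KO and 2.72% to 6.19% in p57WT.

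**Figure D1:**
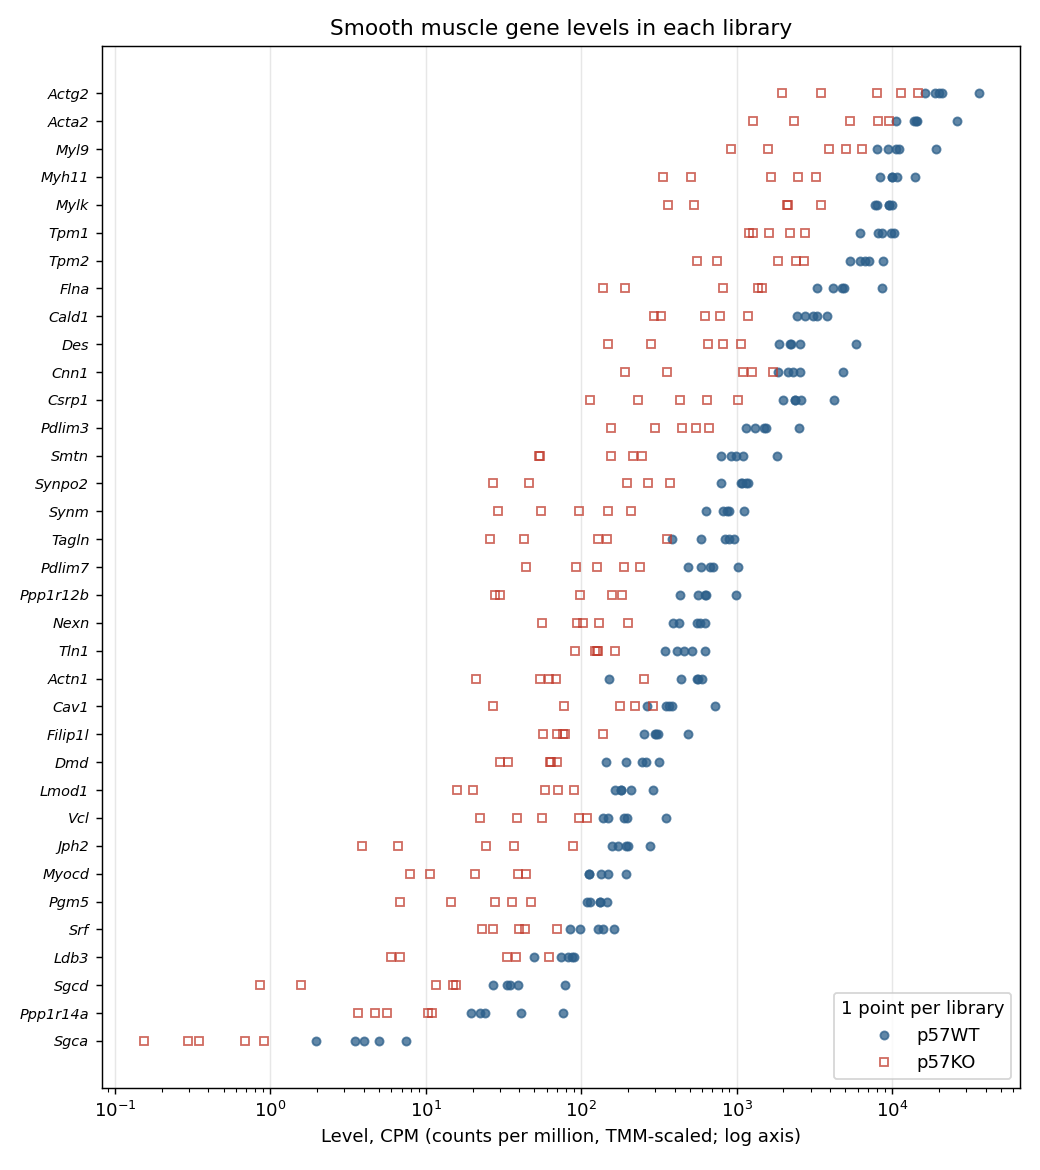
Level of each of the 35 genes in every library, in CPM on a log axis, with 1 filled circle per p57WT library and 1 open square per p57KO library; genes are ordered by their p57WT mean. The squares lie to the left of all circles for 32 genes, and the levels span from under 1 CPM for Sgca in p57KO to 36153 CPM for Actg2 in p57WT 2.

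The libraries within a genotype were not alike. Among the 4 p57KO libraries below 1% ribosomal RNA, both that carry 607 lay below both that carry 608 for 28 of the 35 genes, against 27.5% of all genes tested. p57KO 5 was the highest p57KO library for 23 of the 35 (20.2% of all genes). p57WT 2 was the highest p57WT library for 23 of the 35 (34.9% of all genes) and the lowest for 6 of them (23.4% of all genes), namely Tagln, Mylk, Actn1, Nexn, Filip1l and Srf. p57WT 1, the only wild-type library with 607, was the lowest p57WT library for 28 of the 35 (20.4% of all genes). These counts were chosen after the values were seen. Other markers moved across the same libraries: the summed level of 9 myeloid markers was 1136 and 8504 CPM in p57KO 1 and 2, 207 to 1038 CPM in p57KO 3 to 5 and 28.6 to 157 CPM in p57WT. Their part in the pattern was not tested.

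**Figure D2:**
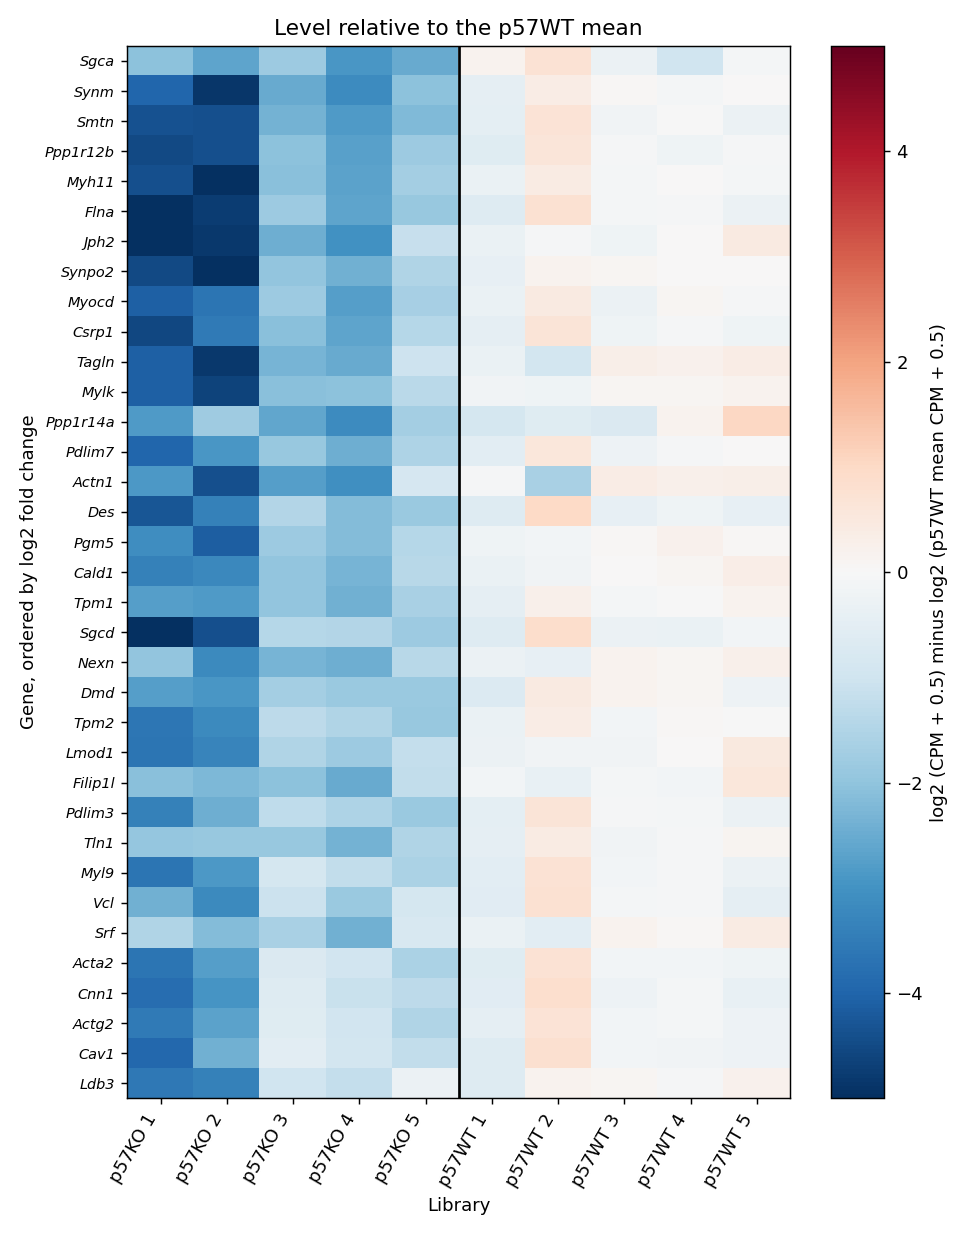
Level of each gene in each library relative to the p57WT mean of that gene, as a difference of log2 (CPM + 0.5), with the p57KO libraries left and the p57WT libraries right of the line and the genes ordered by fold change. The columns of p57KO 1 and 2 are the darkest blue for most genes, and the p57WT 2 column is the reddest for the actins, Des and Csrp1.

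Both transcription factors were lower in p57KO. Srf binds the CArG box and controls both muscle genes and growth-responsive genes, and its gene lies on chromosome 17 at 46548329 to 46556175 (minus strand, GRCm38). Srf stood at 43.3, 27.0, 39.9, 23.0 and 69.6 CPM in the p57KO libraries 1 to 5, against 98.8, 84.8, 139, 129 and 164 CPM in the p57WT libraries 1 to 5. The groups were separate by a narrow gap between p57KO 5 and p57WT 2, and the fitted difference was an edgeR log2 fold change -1.60, SE 0.31, adjusted p = 0.00231. The call was lost with the label number as a term (-1.49, adjusted p = 0.152) and among the libraries above 1% ribosomal RNA (-0.94, adjusted p = 0.0943). Myocd encodes myocardin, the coactivator that ties SRF to the smooth muscle programme, and lies on chromosome 11 at 65176561 to 65269989 (minus strand). Its level was 7.91, 10.7, 39.4, 20.6 and 44.5 CPM in the p57KO libraries 1 to 5, against 112, 194, 113, 149 and 134 CPM in the p57WT libraries 1 to 5. The highest p57KO library, p57KO 5, was far below the lowest p57WT library (edgeR log2 fold change -2.51, SE 0.44, adjusted p = 0.00137).

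Other SRF cofactors and transcription factors of gut and muscle mesenchyme were measured as a related list of 24 symbols, of which 19 were in the table. Of these 19, 14 were lower and 0 higher (17.2% and 19.3% of all genes), with a median log2 fold change of -1.48. Mrtfa, a myocardin-related cofactor of SRF that responds to free actin, lay between 9.01 and 14.6 CPM in p57KO and between 28.7 and 39.5 CPM in p57WT (edgeR log2 fold change -1.48, SE 0.22, adjusted p = 0.000599). Foxf2, a forkhead factor of gut mesenchyme, averaged 11.7 ± 8.68 CPM over the p57KO and 72.6 ± 12.1 CPM over the p57WT libraries (SD, n = 5 each; edgeR log2 fold change -2.64, SE 0.42, adjusted p = 0.000872). Mef2d and Mef2c, muscle factors of the MEF2 family, had log2 fold changes of -1.32 (SE 0.23, adjusted p = 0.00128) and -1.54 (SE 0.27, adjusted p = 0.00137). Gata6, Klf4, Elk3, Prrx1 and Mrtfb were not called. With the label number as a term only 3 of the 19 were called lower (4.94% of all genes), and with the libraries above 1% ribosomal RNA alone also 3 (3.07% of all genes).

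The promoters of the 35 genes were searched for the CArG box, since it is the element through which Srf acts on this gene class. RefSeq promoter entries (GRCm38.p6, 250 bases before to 50 bases after the annotated start) were matched by symbol for 30 of the 35 genes. Actg2, Myh11, Myocd, Nexn and Tagln had no entry in that table. An exact CArG box, a 10-base motif whose pattern reads the same on both strands, was found in the windows of 6 of the 30 genes (20.0%): Srf, Myl9, Vcl, Filip1l, Dmd and Ldb3. Among all 27025 genes with an entry 1.81% had one, and among the 11227 tested genes with an entry 1.68% had one. With 1 mismatch allowed in the 6 inner letters, 10 of the 30 (33.3%) and 11.3% of all genes had a match. For each of these genes 1 window with an exact match is printed 5′ to 3′ on the strand of the gene, with the CArG boxes in capitals, because it shows where the match lies relative to the start.
Srf, chr17:46556113-46556412, minus strand: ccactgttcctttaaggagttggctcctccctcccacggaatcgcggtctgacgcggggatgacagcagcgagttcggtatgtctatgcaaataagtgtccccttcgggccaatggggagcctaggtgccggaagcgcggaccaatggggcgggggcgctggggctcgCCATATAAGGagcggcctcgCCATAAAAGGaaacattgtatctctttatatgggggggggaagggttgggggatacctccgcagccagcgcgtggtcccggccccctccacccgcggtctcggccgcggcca
Myl9, chr2:156775214-156775513, plus strand: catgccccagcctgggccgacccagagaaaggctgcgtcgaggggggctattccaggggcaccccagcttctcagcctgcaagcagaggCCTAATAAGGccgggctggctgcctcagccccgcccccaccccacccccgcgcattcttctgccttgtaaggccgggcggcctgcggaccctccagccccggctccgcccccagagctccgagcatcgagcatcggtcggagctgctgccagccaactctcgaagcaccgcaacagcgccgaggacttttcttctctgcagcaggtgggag
Vcl, chr14:20929148-20929447, plus strand: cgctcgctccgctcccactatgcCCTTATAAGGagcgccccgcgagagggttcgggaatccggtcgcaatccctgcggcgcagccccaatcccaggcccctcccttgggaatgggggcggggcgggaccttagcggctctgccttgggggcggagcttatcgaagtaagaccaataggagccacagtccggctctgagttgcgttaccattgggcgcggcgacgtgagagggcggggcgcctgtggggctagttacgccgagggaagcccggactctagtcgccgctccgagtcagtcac
Filip1l, chr16:57548992-57549291, plus strand: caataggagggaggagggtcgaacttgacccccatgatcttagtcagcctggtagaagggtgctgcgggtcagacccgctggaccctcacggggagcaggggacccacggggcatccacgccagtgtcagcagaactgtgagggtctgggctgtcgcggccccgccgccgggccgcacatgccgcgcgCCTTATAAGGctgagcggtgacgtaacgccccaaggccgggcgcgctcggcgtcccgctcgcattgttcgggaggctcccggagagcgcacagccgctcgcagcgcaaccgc
Dmd, chrX:82948620-82948919, plus strand: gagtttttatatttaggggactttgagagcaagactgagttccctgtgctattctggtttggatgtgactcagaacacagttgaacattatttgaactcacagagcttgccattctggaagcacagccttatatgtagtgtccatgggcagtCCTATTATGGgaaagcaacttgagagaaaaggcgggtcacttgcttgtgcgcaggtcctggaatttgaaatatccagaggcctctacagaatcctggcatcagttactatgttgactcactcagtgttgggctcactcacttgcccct
Ldb3, chr14:34588558-34588857, minus strand: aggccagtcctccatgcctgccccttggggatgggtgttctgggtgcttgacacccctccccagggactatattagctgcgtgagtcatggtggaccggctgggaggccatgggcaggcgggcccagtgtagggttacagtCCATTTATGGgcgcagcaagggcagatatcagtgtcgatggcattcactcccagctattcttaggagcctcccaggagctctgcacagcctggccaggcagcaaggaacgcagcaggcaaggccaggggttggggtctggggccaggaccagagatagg
The Srf window held a pair of matches, beginning 82 and 62 bases before the start. The match began 161 bases before the start in Myl9, 227 in Vcl, 62 in Filip1l, 98 in Dmd and 109 in Ldb3. Ldb3 had a further annotated start whose window overlaps the printed one, and this same match began 35 bases before that start. Filip1l and Dmd each had a further start whose window held no exact match. The 6 genes with a match had log2 fold changes between -2.15 (Dmd) and -1.39 (Ldb3), all of them nearer to 0 than the median of the 35. A match is a description of the letters in these windows and no measurement of binding.

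The 11 genes of the actin and myosin filaments were all called lower, with a median log2 fold change of -2.04. Per kilobase of exon the most abundant of the 35 genes in p57WT were Actg2 (14440.5 CPM per kb), Myl9 (10079 CPM per kb), Acta2 (7241 CPM per kb) and Tpm2 (2354 CPM per kb), and these 4 kept that order in p57KO. Actg2 lies on chromosome 6 at 83512905 to 83536265 (minus strand). Its level was 1956, 3511, 14755, 11499 and 8024 CPM in the p57KO libraries 1 to 5, against 16276, 36153, 20183, 20920.1 and 18886 CPM in the p57WT libraries 1 to 5. The highest p57KO library, p57KO 3, came close to the lowest p57WT library, p57WT 1. The fitted difference was an edgeR log2 fold change -1.50, SE 0.55, adjusted p = 0.0467, and the call held in 2 of 10 fits that left out 1 library each and was lost with the ribosomal RNA class as a term (adjusted p = 0.0686). Acta2, the actin of vascular and other smooth muscle and of myofibroblasts, lies on chromosome 19 at 34241090 to 34255590 (minus strand). It stood at 1273, 2329, 9512, 8095 and 5362 CPM in the p57KO libraries 1 to 5, against 10549.9, 26348, 14324, 14514 and 13770.2 CPM in the p57WT libraries 1 to 5, with edgeR log2 fold change -1.58, SE 0.54, adjusted p = 0.0367. Its call held in 4 of those 10 fits and was lost with the ribosomal RNA class as a term (adjusted p = 0.0559). Its libraries kept the order seen for Actg2 in p57KO, where p57KO 3 was highest and p57KO 1 lowest.

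The myosin genes were a heavy and a light chain. Myh11 lies on chromosome 16 at 14194535 to 14291372 (minus strand). It stood at 506, 339, 2475, 1666 and 3224 CPM in the p57KO libraries 1 to 5, against 8343, 14009, 9972, 10764 and 9935 CPM in the p57WT libraries 1 to 5. Even the highest p57KO library held less than any p57WT library, and the difference was an edgeR log2 fold change -2.69, SE 0.58, adjusted p = 0.00392. Myl9, the regulatory light chain that myosin light chain kinase phosphorylates, stood at 927, 1599, 6397, 5057 and 3905 CPM in the p57KO libraries 1 to 5, against 8058, 19253, 10668, 11109.6 and 9468 CPM in the p57WT libraries 1 to 5 (edgeR log2 fold change -1.71, SE 0.52, adjusted p = 0.0219).

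The tropomyosins lie along the actin filament and set access for myosin. Tpm1 stood at 1279, 1210.1, 2194, 1628 and 2771 CPM in the p57KO libraries 1 to 5, against 6245, 10299.9, 8155, 8612 and 9885 CPM in the p57WT libraries 1 to 5, with a narrower spread in p57KO than the actins had. The log2 fold change was -2.25 (SE 0.36, edgeR adjusted p = 0.000849). Tpm2, its partner in smooth muscle, ranged from 556 to 2729 CPM across the p57KO libraries and from 5393 to 8749 CPM across the p57WT libraries (log2 fold change -2.04, SE 0.46, adjusted p = 0.00471).

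Actin-binding regulators of the filament were lower as well. Smtn, which encodes smoothelin, a marker of contractile smooth muscle, had the largest fold in this group. It stood at 54.1, 53.3, 216, 157 and 246 CPM in the p57KO libraries 1 to 5, against 798, 1819, 987, 1103 and 920.5 CPM in the p57WT libraries 1 to 5 (edgeR log2 fold change -2.96, SE 0.47, adjusted p = 0.000844). Tagln, which encodes the actin-binding protein SM22-alpha, stood at 42.7, 25.8, 147, 129 and 356 CPM in the p57KO libraries 1 to 5, against 591, 386, 899, 846 and 965 CPM in the p57WT libraries 1 to 5. Here p57WT 2 was the lowest p57WT library and lay not far above p57KO 5, the highest p57KO library (edgeR log2 fold change -2.40, SE 0.59, adjusted p = 0.00803). Without p57KO 5 the log2 fold change of Tagln was -3.07. With the ribosomal RNA class as a term it was -1.69, and among the libraries above 1% ribosomal RNA it was -1.23. Cnn1, calponin, an actin-binding inhibitor of myosin, ranged from 193 to 1726 CPM in p57KO and from 1838 to 4831 CPM in p57WT (edgeR log2 fold change -1.56, SE 0.53, adjusted p = 0.0357), and its call was lost with the ribosomal RNA class as a term (adjusted p = 0.0633). Cald1, caldesmon, a calmodulin-binding inhibitor of the same kind, ranged from 296 to 1179 CPM and from 2451 to 3838 CPM (edgeR log2 fold change -2.26, SE 0.40, adjusted p = 0.00137). Lmod1, a leiomodin that nucleates actin filaments, ranged from 15.9 to 89.7 CPM in p57KO and 166 to 289 CPM in p57WT (edgeR log2 fold change -2.01, SE 0.43, adjusted p = 0.00386), and was not called among the libraries above 1% ribosomal RNA (adjusted p = 0.0593).

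**Figure D3:**
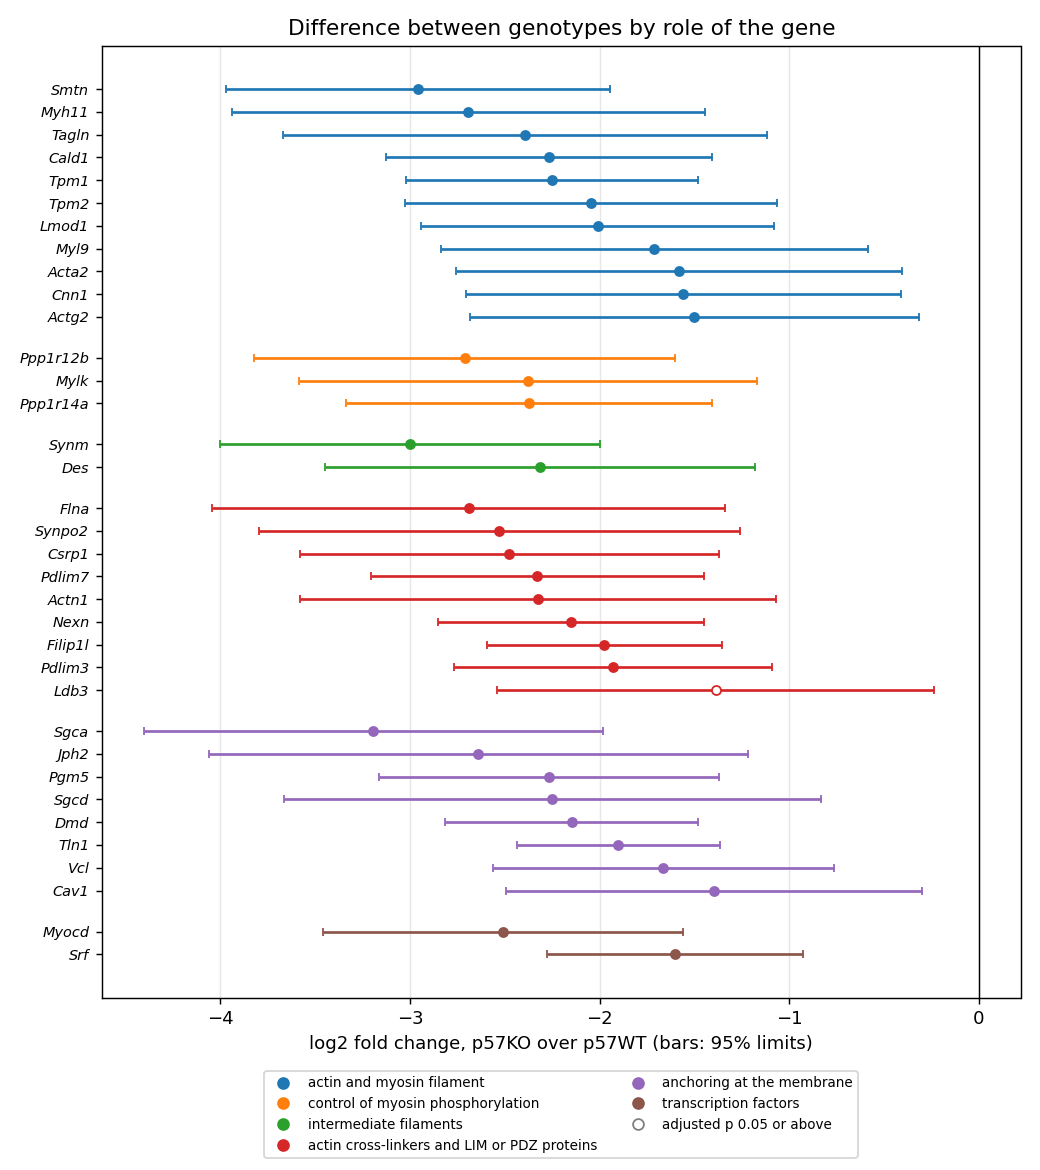
Log2 fold change of each gene, p57KO over p57WT, with bars for the 95% limits, grouped and coloured by the role of the gene; the open symbol is the gene not called at an adjusted p of 0.05. All 35 points lie left of 0, from -3.19 for Sgca to -1.39 for Ldb3.

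The 3 genes that control myosin phosphorylation were all called lower. Mylk encodes the myosin light chain kinase and lies on chromosome 16 at 34745210 to 35002420 (plus strand). It stood at 529, 365, 2095, 2156 and 3514 CPM in the p57KO libraries 1 to 5, against 8018, 7716, 9615, 9598 and 10053 CPM in the p57WT libraries 1 to 5. The p57WT libraries were close together (SD 1056 CPM around a mean of 9000.1 CPM), whereas the p57KO libraries spread over 365 to 3514 CPM (edgeR log2 fold change -2.38, SE 0.56, adjusted p = 0.00627). Ppp1r12b, a targeting subunit of myosin phosphatase, stood at 28.0, 30.2, 158, 98.0 and 182 CPM in the p57KO libraries 1 to 5, against 431, 999, 627, 561 and 633 CPM in the p57WT libraries 1 to 5 (edgeR log2 fold change -2.71, SE 0.52, adjusted p = 0.00203). Ppp1r14a encodes CPI-17, the phosphatase inhibitor that makes smooth muscle more sensitive to calcium. It was the least abundant of the 3, at 4.73, 10.4, 5.64, 3.68 and 11.1 CPM in the p57KO libraries 1 to 5, against 19.6, 24.0, 22.4, 41.2 and 76.8 CPM in the p57WT libraries 1 to 5 (edgeR log2 fold change -2.37, SE 0.45, adjusted p = 0.00197). Its call was lost with the label number as a term (-1.36, adjusted p = 0.331) and among the libraries above 1% ribosomal RNA (-1.87, adjusted p = 0.175).

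Related genes of contraction and calcium handling moved in the same direction. Of 31 such genes measured, 24 were lower and 0 higher (17.2% and 19.3% of all genes), and their median log2 fold change was -1.94. Cacna1c, the pore subunit of the L-type calcium channel, lay between 4.39 and 25.2 CPM in p57KO and between 74.2 and 111 CPM in p57WT (edgeR log2 fold change -3.08, SE 0.43, adjusted p = 0.000472). Abcc9, the regulatory subunit of ATP-sensitive potassium channels and a marker of pericytes too, had a log2 fold change of -2.59 (SE 0.28, adjusted p = 0.000178). Ppp1r12a and Ppp1r12c, other targeting subunits of the phosphatase, had log2 fold changes of -2.26 (SE 0.31, adjusted p = 0.000394) and -2.60 (SE 0.38, adjusted p = 0.000559). Tacr2, Rhoa, Ppp1r14c, Ppp1cb, Rock2, Ppp1r14b and Rock1 were not called. With the libraries above 1% ribosomal RNA alone, 12 of the 31 were called lower (3.07% of all genes).

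Both intermediate filament genes were lower. Des encodes desmin, the muscle intermediate filament that links dense bodies, and lies on chromosome 1 at 75360329 to 75368579 (plus strand). Its level was 149, 283, 1067, 651 and 812 CPM in the p57KO libraries 1 to 5, against 1884, 5826, 2224, 2568 and 2219 CPM in the p57WT libraries 1 to 5. p57WT 2 stood well above the other p57WT libraries, and these in turn lay above every p57KO library (edgeR log2 fold change -2.31, SE 0.53, adjusted p = 0.00524). Synm encodes synemin, a large partner of desmin. It stood at 54.9, 29.1, 149, 97.0 and 210.2 CPM in the p57KO libraries 1 to 5, against 637, 1115, 889, 818 and 867 CPM in the p57WT libraries 1 to 5 (edgeR log2 fold change -3.0, SE 0.47, adjusted p = 0.000745).

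Of the 9 genes for actin cross-linkers and LIM or PDZ proteins, 8 were called lower and the median log2 fold change of the 9 was -2.32. Flna encodes filamin A, which joins actin filaments into networks. It stood at 138, 191, 1449.8, 819 and 1383 CPM in the p57KO libraries 1 to 5, against 3288, 8617, 4755, 4899 and 4143 CPM in the p57WT libraries 1 to 5 (edgeR log2 fold change -2.69, SE 0.63, adjusted p = 0.00596). Actn1, alpha-actinin of dense bodies and adhesions, stood at 62.1, 21.2, 68.9, 54.3 and 255 CPM in the p57KO libraries 1 to 5, against 438, 152, 595, 554 and 569 CPM in the p57WT libraries 1 to 5. For Actn1 the groups overlapped, because p57KO 5 exceeded p57WT 2, while the other 8 libraries were separate (edgeR log2 fold change -2.32, SE 0.58, adjusted p = 0.00848). Without p57KO 5 its log2 fold change was -3.14, and with the label number as a term it was not called (adjusted p = 0.0534). With the ribosomal RNA class as a term the log2 fold change of Actn1 was -1.32, and among the libraries above 1% ribosomal RNA it was -1.10.

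The LIM and PDZ proteins sit on alpha-actinin or on filament ends. Synpo2, synaptopodin 2, ranged from 26.9 to 376 CPM in p57KO and 794 to 1191 CPM in p57WT (edgeR log2 fold change -2.53, SE 0.59, adjusted p = 0.00596). Csrp1, a LIM protein that also partners SRF, ranged from 115 to 1018 CPM and 1999.9 to 4259.6 CPM (edgeR log2 fold change -2.48, SE 0.51, adjusted p = 0.00319). Pdlim7 and Pdlim3, adaptors with PDZ and LIM domains, had log2 fold changes of -2.33 (SE 0.41) and -1.93 (SE 0.39). Their p57KO libraries lay below all p57WT libraries, at most at 238 CPM against at least 486 CPM for Pdlim7 and at most 664 CPM against at least 1143 CPM for Pdlim3. Nexn, nexilin, an actin-binding protein of adhesions, ranged from 56.2 to 199 CPM in p57KO and 389 to 624 CPM in p57WT (edgeR log2 fold change -2.15, SE 0.33, adjusted p = 0.000671). Filip1l, a filamin-interacting protein, ranged from 56.7 to 139 CPM and 256 to 483 CPM (edgeR log2 fold change -1.97, SE 0.29, adjusted p = 0.000554).

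Ldb3, a PDZ and LIM protein of the Z-disc family that is also a striated muscle gene, was the only gene of the 35 that missed the threshold. It stood at 5.93, 6.86, 38.2, 33.4 and 62.2 CPM in the p57KO libraries 1 to 5, against 49.4, 87.4, 82.6, 74.2 and 89.6 CPM in the p57WT libraries 1 to 5. p57KO 5 exceeded p57WT 1, and the other p57KO libraries were lower than every p57WT library. The log2 fold change was -1.39 with 95% limits of -2.54 and -0.23 (edgeR adjusted p = 0.0571), so the limits leave out 0 while the adjusted p does not pass. Between p57KO 5 and the 4 p57WT libraries that are also above 1% ribosomal RNA the log2 fold change was -0.27 (adjusted p = 0.654). Without p57KO 5 the gene was called lower.

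All 8 genes that anchor the filaments at the membrane were called lower, with a median log2 fold change of -2.20. Vcl and Tln1 encode vinculin and talin, which tie actin to integrins. Vcl stood at 38.4, 22.3, 96.6, 55.7 and 109.7 CPM in the p57KO libraries 1 to 5, against 138, 349.5, 189.7, 196 and 148 CPM in the p57WT libraries 1 to 5 (edgeR log2 fold change -1.66, SE 0.42, adjusted p = 0.0085). Among the libraries above 1% ribosomal RNA it was not called (-0.63, adjusted p = 0.192). Tln1 stood at 124, 126, 128, 91.1 and 164 CPM in the p57KO libraries 1 to 5, against 346, 627, 416, 457 and 518 CPM in the p57WT libraries 1 to 5, and had the smallest SE of the 35 (edgeR log2 fold change -1.90, SE 0.25, adjusted p = 0.000343), and it was not called with the label number as a term (-1.47, adjusted p = 0.0644). Pgm5, aciculin, a partner of dystrophin and vinculin at dense plaques, ranged from 6.82 to 47.4 CPM in p57KO and 109 to 147 CPM in p57WT (edgeR log2 fold change -2.26, SE 0.42, adjusted p = 0.0017).

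The dystrophin complex connects the cytoskeleton to laminin outside the cell. Dmd, dystrophin, lies on the X chromosome at 82948870 to 85206141 (plus strand). It stood at 34.0, 30.2, 70.3, 63.2 and 64.2 CPM in the p57KO libraries 1 to 5, against 144, 316, 259, 246 and 194 CPM in the p57WT libraries 1 to 5 (edgeR log2 fold change -2.15, SE 0.31, adjusted p = 0.000525). The p57KO libraries lay closer together than those of most of the 35 genes, and all were below the lowest p57WT library. Sgca, alpha-sarcoglycan, was the rarest of the 35 and had the largest fold. It stood at 0.688, 0.296, 0.911, 0.153 and 0.348 CPM in p57KO 1 to 5, from 49 counts over all 5 libraries, and at 5.01, 7.51, 3.51, 1.96 and 4.03 CPM in p57WT 1 to 5 (edgeR log2 fold change -3.19, SE 0.56, adjusted p = 0.00137). It was not called with the label number as a term (adjusted p = 0.0779) or among the libraries above 1% ribosomal RNA (adjusted p = 0.0693). Sgcd, delta-sarcoglycan, stood at 0.860, 1.57, 15.6, 15.0 and 11.7 CPM in the p57KO libraries 1 to 5, against 27.1, 78.7, 34.6, 33.4 and 39.2 CPM in the p57WT libraries 1 to 5. For Sgcd both p57KO libraries of 607 were far below those of 608, which in turn lay below p57WT 1 (edgeR log2 fold change -2.25, SE 0.66, adjusted p = 0.0179).

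Cav1 and Jph2 organise the membrane itself. Cav1, caveolin-1, coats caveolae in smooth muscle, endothelium and other cells. It stood at 27.0, 78.1, 289, 223 and 178 CPM in the p57KO libraries 1 to 5, against 266, 726, 384, 366 and 350.3 CPM in the p57WT libraries 1 to 5. p57KO 3 exceeded p57WT 1, so the groups overlapped (edgeR log2 fold change -1.40, SE 0.51, adjusted p = 0.0463). The call was lost with the ribosomal RNA class as a term (adjusted p = 0.0764) and among the libraries above 1% ribosomal RNA (adjusted p = 0.0665). Jph2, junctophilin 2, holds the sarcoplasmic reticulum close to the plasma membrane. It stood at 3.87, 6.61, 36.8, 24.4 and 89.2 CPM in the p57KO libraries 1 to 5, against 158, 193, 173, 201 and 276 CPM in the p57WT libraries 1 to 5 (edgeR log2 fold change -2.64, SE 0.66, adjusted p = 0.00843). Without p57KO 5, the highest p57KO library, its log2 fold change was -3.46, and among the libraries above 1% ribosomal RNA it was not called (-1.19, adjusted p = 0.069).

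Other genes of adhesion, caveolae and the dystrophin complex were lower in 27 of 31 measured and higher in 0 (17.2% and 19.3% of all genes), with a median log2 fold change of -1.71. Tns1, tensin 1, lay between 19.0 and 68.5 CPM in p57KO and between 196 and 346 CPM in p57WT (edgeR log2 fold change -2.94, SE 0.37, adjusted p = 0.000298). Svil, supervillin, and Lims2, a partner of integrin-linked kinase, had log2 fold changes of -2.01 (SE 0.25) and -2.72 (SE 0.36), with adjusted p = 0.000286 and 0.000345. Dag1, Lims1, Pxn and Cav2 were not called. With the label number as a term 14 of the 31 were called lower (4.94% of all genes), and with the libraries above 1% ribosomal RNA alone also 14 (3.07% of all genes).

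Non-muscle relatives of the same proteins behaved unequally. Among 19 non-muscle actomyosin genes 5 were lower and 3 higher, beside 17.2% and 19.3% of all genes, and the median log2 fold change was -0.21. Coro1c, a coronin, was lower (edgeR log2 fold change -1.36, SE 0.31, adjusted p = 0.00489), and Limch1, Myh10 and Cnn2 were among the others called lower. The 3 higher genes were Myl12b (log2 fold change 2.09, SE 0.34, adjusted p = 0.00102), a non-muscle light chain, Tagln2 (1.43, SE 0.31, adjusted p = 0.00404) and Tpm3 (1.27, SE 0.28, adjusted p = 0.00463). When libraries were scaled to 18 epithelial markers instead, which moved the median of all genes from 0.08 to -1.24, Tpm3 was at -0.0866 and was not called (adjusted p = 0.814), and 13 of the 19 were lower, near the share of all genes under that scaling (60.9%).

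A ratio of a muscle gene to a related gene within each library does not depend on the scaling between libraries. Of 16 pairs listed, 15 had both genes in the table, and Des over Vim was not analysed here. An exact two-sided permutation test compared the mean log2 ratio of counts between 5 p57KO and 5 p57WT libraries, where the smallest possible p is 0.00794. The ratio was lower in p57KO for 13 of the 15 pairs at p adjusted over the pairs under 0.05, and higher for 0. The first gene of each pair had already been called lower in these same libraries, and the pairs were chosen with earlier results known. A lower ratio was therefore likely beforehand, and the share over pairs of other genes was not computed. These ratios show unequal change between the genes of a pair and do not show which of them changed.

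The largest difference was that of Tagln over Tagln2, whose mean log2 ratio was -2.18 ± 1.91 (SD, n = 5) in p57KO and 2.05 ± 0.70 (SD, n = 5) in p57WT, a difference of -4.23 (exact permutation p = 0.00794, adjusted 0.0132). Tpm2 over Tpm3 differed by -3.48 and Tpm1 over Tpm4 by -2.79, with the same p and adjusted p for each. Actg2 over Actg1, the enteric against the cytoplasmic gamma actin, stood at 4.94, 4.37, 6.30, 6.23 and 6.33 on the log2 scale in p57KO 1 to 5. In p57WT 1 to 5 it stood at 7.99, 7.90, 8.38, 8.71 and 8.36, above every p57KO library (difference -2.64, exact permutation p = 0.00794, adjusted 0.0132). Acta2 over Actb was 0.12 to 0.17 in p57KO 3 to 5 and -2.15 and -2.34 in p57KO 1 and 2, against 1.0 to 1.31 in p57WT (difference -2.0, the same p). In the 3 p57KO libraries of 608 the 2 actins were thus at nearly equal counts.

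Myh11 over Myh9 differed by -2.42 (exact permutation p = 0.0159, adjusted 0.0216) and Myh11 over Myh10 by -0.96 (the same p and adjusted p), with 1 p57KO library overlapping p57WT in each. Myl9 over Myl12a by -1.91, Tln1 over Tln2 by -1.50 and Dmd over Utrn, dystrophin against utrophin, by -1.30 (each exact permutation p = 0.00794, adjusted 0.0132). Actn1 over Actn4 differed by -2.11 and Cnn1 over Cnn3 by -1.10 (both exact permutation p = 0.0238, adjusted 0.0275). Ppp1r12b over Ppp1r12a, both phosphatase targeting subunits, differed by -0.72 and did not pass (exact permutation p = 0.0952, adjusted 0.0952). Actg2 over Acta2 did not pass either: its mean log2 ratio was 0.59 ± 0.05 (SD, n = 5) in p57KO and 0.51 ± 0.07 (SD, n = 5) in p57WT, with the same p. The lowest and highest of the 10 libraries for this ratio, 0.46 and 0.63, lay close together, while Acta2 itself ran from 1273 to 26348 CPM.

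**Figure D4:**
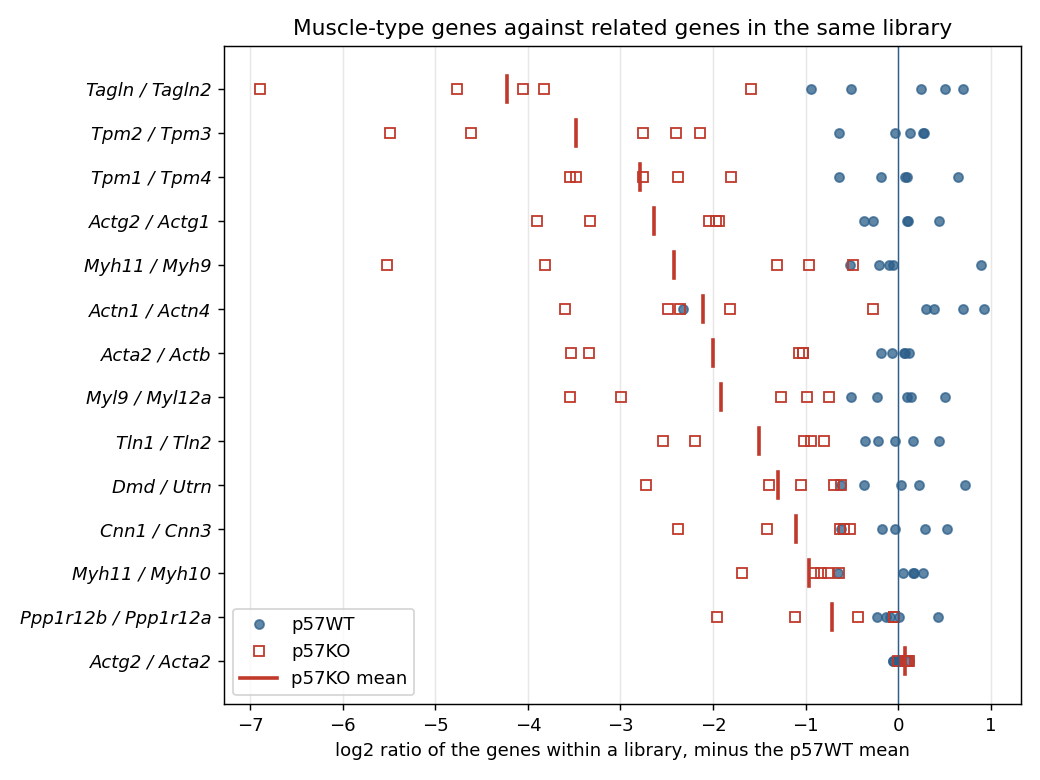
Log2 ratio of the counts of 2 related genes within each library, minus the p57WT mean of that ratio, with circles for p57WT libraries, squares for p57KO libraries and a red bar for the p57KO mean, for 14 of the 15 pairs. The bars run from -4.23 for Tagln over Tagln2 to 0.07 for Actg2 over Acta2.

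Markers of other cell types moved with the genotype too, and their part in the smooth muscle values was not tested. The shares of all genes for comparison are again 17.2% lower and 19.3% higher. Of 8 fibroblast markers measured 5 were lower and 0 higher, and their summed level was 172 to 1280 CPM in p57KO and 2515 to 8871 CPM in p57WT. Of 8 pericyte markers 7 were lower and 0 higher, with a summed level of 81.2 to 347 CPM in p57KO and 812 to 1343 CPM in p57WT. Pericytes share contractile genes with smooth muscle, and Abcc9 and Kcnj8 stand in both lists. Of 18 epithelial markers 16 were higher and 0 lower, with a summed level of 10185 to 19597 CPM in p57KO and 3468 to 8183 CPM in p57WT. Of 9 myeloid markers 8 were higher, and of 7 erythroid markers 6 were higher. Endothelial markers were near 0 throughout: the 7 measured summed to 6.02 to 24.8 CPM in p57KO and 3.27 to 19.9 CPM in p57WT, and none of the 3 that could be tested was called.

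**Figure D5:**
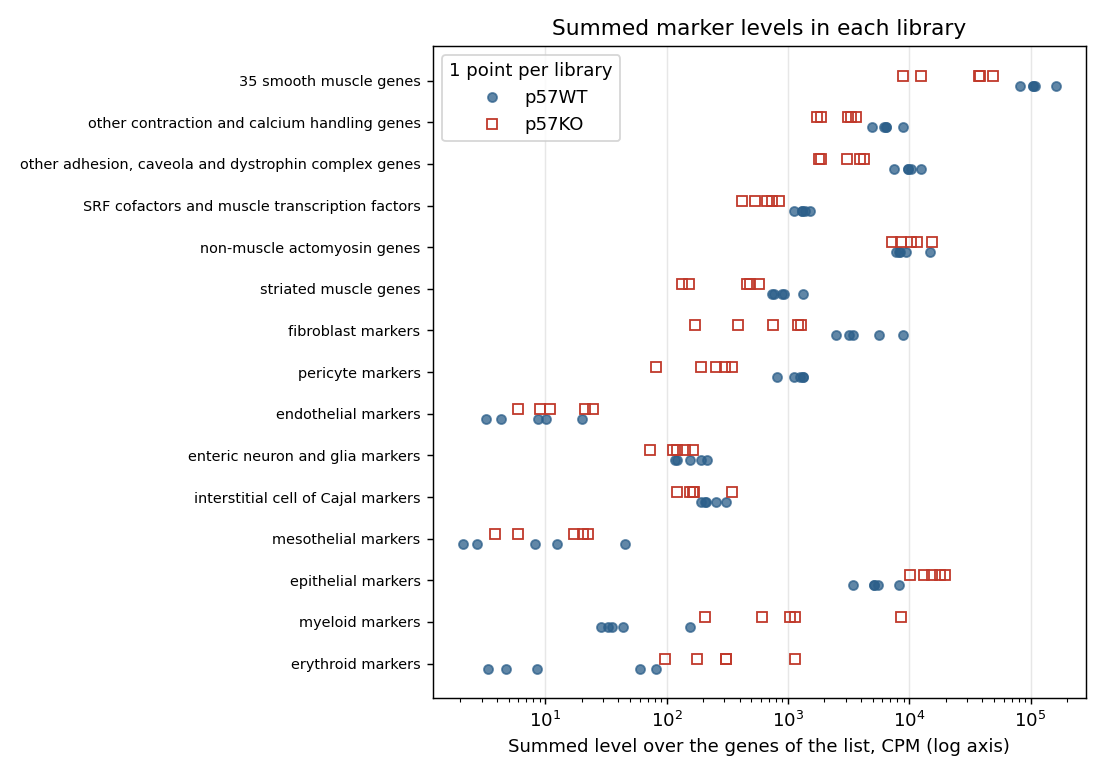
Summed level of each gene list in each library, in CPM on a log axis, with circles for p57WT and squares for p57KO. The 35 smooth muscle genes sum to 8932 to 48734 CPM in p57KO and 82023 to 161637 CPM in p57WT, and the epithelial and myeloid sums are ordered the other way.

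The calls of Acta2, Actg2, Cnn1, Cav1 and Myl9 were not kept in every fit that left out 1 library. With all 10 libraries the first 4 were already near the threshold, at edgeR adjusted p between 0.0357 and 0.0467. Myl9 was lost only without p57KO 2. In fits that left out 1 library each, 29 of the 35 genes kept an adjusted p under 0.05 in all 10 fits. Such fits called 34, 29, 34, 31 and 32 of the 35 lower without p57KO 1 to 5 in turn, beside 20.9%, 15.2%, 14.4%, 13.1% and 18.9% of all genes. They called 32 without p57WT 1 (15.3% of all genes) and 30 without each of p57WT 2 to 5 (15.3%, 14.0%, 13.6% and 13.5%). Actg2 and Cav1 kept it only without p57KO 1 or p57KO 3, and Acta2 and Cnn1 kept it in 4 of 10 each. Leaving out p57KO 2 gave the highest adjusted p for Acta2 (0.0873), Actg2 (0.106), Cav1 (0.117) and Myl9 (0.0546), and for Cnn1 the highest was 0.087, without p57WT 2. Acta2 and Cnn1 were also lost without p57WT 2, 3, 4 or 5, Actg2 and Cav1 without p57KO 4 or 5 or any p57WT library, Acta2 without p57KO 5 and Cnn1 without p57KO 4. All of these fits kept the direction.

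The settings of the analysis changed the sizes more than the direction. The number called lower was 32 with DESeq2 size factors (17.5% of all genes), 35 with DESeq2 and 35 with limma voom (each 20.2%), 30 with no filter on low counts (14.3%), 35 with the replicate block (17.6%) and 35 with scaling to epithelial markers (60.9%). Without both p57KO libraries of 607, 33 of the 35 were called lower (19.1% of all genes) and the median log2 fold change was -1.79, with Acta2 at -0.98, Myh11 at -2.06 and Tagln at -1.77. With the label number as a term, 30 were called lower (4.94% of all genes), and Tln1, Sgca, Ppp1r14a, Srf and Actn1 were not. With the ribosomal RNA class as a term, 30 were called lower (10.5% of all genes), and Acta2, Actg2, Cnn1, Cav1 and Ldb3 were not. Among the libraries above 1% ribosomal RNA, p57KO 5 against 4 p57WT libraries, 27 were called lower (3.07% of all genes), with Myh11 at -1.61 and Mylk at -1.42. Among those below 1%, 4 p57KO libraries against p57WT 2, edgeR called 0 of the 35 and 0 of 20427 genes, while 32 of the 35 had an unadjusted p under 0.05 and the median log2 fold change was -2.64. In these comparisons the lone library is assumed to vary like the other group. The fit with the label number as a term draws its genotype difference from 607 alone, p57KO 1 and 2 against p57WT 1.

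The counting of some genes is less certain. The strand setting of the counting is not given in the sources used here, and 9 of the 35 have an exon that overlaps an antisense gene, among them Tagln with Pcsk7, Vcl with Ap3m1 and Synm with Ttc23. Acta2 and Actg2 shared no 100-base stretch of their transcripts, and of the 35 only Nexn shared any with another gene (4.38% of its windows). In the authors' deposited table all 35 are lower at an adjusted p under 0.05, against 17.0% of its genes.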

How the data were processed

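RNA from 10 libraries of sorted E18.5 mouse intestinal cells, 5 p57KO and 5 p57WT, was analysed from 1 deposited table of 20579 genes. Its raw counts per gene were made by the authors; the submitters' processing notes name DESeq2 1.22.2, HTSeq 1.0, Cufflinks 2.2.1, STAR 2.6.1d, Trim Galore and FastQC and the builds mm10 and GRCm38, with no role for each. The deposited normalized counts, a signal, equalled the count divided by 1 size factor per library and were used only for that check. The authors' deposited table also gives log2 fold changes, p-values and a test score; the log2 fold changes and adjusted p-values were used for its own calls and the score was not used.

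The test was edgeR's quasi-likelihood test on the counts (edgeR 4.0.16, R 4.3.3; TMM scaling, filterByExpr, genotype as the only term, two-sided), with Benjamini-Hochberg adjustment over 16710 genes and an adjusted p under 0.05 as the call. It was tested on simulated data. Standard errors are the log2 fold change over the square root of F. Pair ratios used log2 of counts with a pseudocount of 0.5. Gene coordinates are from GENCODE M21 (GRCm38), to which 20558 gene IDs matched, and promoters from RefSeq. Alternatives were DESeq2 1.42.0, its size factors, limma 3.58.1 voom, no filter, scaling to epithelial markers, a replicate block, the label number or ribosomal RNA class as a term, and leaving out libraries. The subsets of libraries by label number and ribosomal RNA were added after the data were seen.

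All 35 genes were named, with Cdkn1c and Hopx as checks, up to 4 genes of smallest p from each related list and both genes of each pair, apart from a few results not reported here; genes not called in a list are named by symbol. The 35 genes, the lists and the pairs were chosen with earlier results of these data known, so no test of a list as a whole was run. Markers with no row in the table were not analysed here. Counts of replicates differed by more than sampling noise in every pair of libraries of a group.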

Additional observations from a re-analysis of the deposited data

Results flagged for a closer look

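Each group of 5 libraries was checked for a single library far from the other 4, in 70 groups over the 35 genes. A gap this wide arises by chance in about 1 in 20 groups if values are normally distributed, and 12 values showed one. The CPM values were not log-transformed and the genes share libraries, so the 12 are not independent and that rate is only a guide. In p57WT 2, 9 genes stood above the other p57WT libraries. The actins were Acta2 at 26348 CPM, against 10549.9 to 14514 CPM in the other 4, and Actg2 at 36153 CPM, against 16276 to 20920.1 CPM. Myl9 stood at 19253 CPM against 8058 to 11109.6 CPM, Cnn1 at 4831 CPM against 1838 to 2548 CPM, and Des at 5826 CPM against 1884 to 2568 CPM. Csrp1 stood at 4259.6 CPM against 1999.9 to 2583 CPM, and Cav1 at 726 CPM against 266 to 384 CPM. Among the rarer genes Vcl stood at 349.5 CPM against 138 to 196 CPM, and Sgcd at 78.7 CPM against 27.1 to 39.2 CPM. p57WT 2 is the only wild-type library below 1% ribosomal RNA, and the part of that difference in these values was not tested.

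In p57KO 5, Actn1 stood at 255 CPM against 21.2 to 68.9 CPM in the other p57KO libraries, and Filip1l at 139 CPM against 56.7 to 79.1 CPM. p57KO 5 is the only p57KO library above 1% ribosomal RNA. In p57WT 5, Filip1l stood at 483 CPM against 256 to 313 CPM in the other p57WT libraries.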

How the results depend on the processing

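Across 21 other settings, all 735 fitted log2 fold changes of the 35 genes were below 0. The number called lower was 32 with DESeq2 size factors, 35 with DESeq2, 35 with limma voom, 30 without the filter on low counts, and 29 to 34 when 1 library was left out. Scaling to epithelial markers gave 35, with a median log2 fold change of -3.50, and 13 of 19 non-muscle actomyosin genes lower, beside 60.9% of all genes. Under that scaling Hopx turned to -0.254, Tpm3 to -0.0866, Etv1 to -0.0635 and Kit to -0.0485, none of them called. The same scaling put the median of all genes tested at -1.24. It also moved the share of higher calls among all called genes from 52.8% to 4.5%, and the share was 18.1% with the label number as a term and 40.8% with the ribosomal RNA class as a term. With the label number as a term the median of the 35 was -3.04, and 14 adhesion, 3 SRF and muscle factor and 1 non-muscle gene were lower. With libraries above 1% ribosomal RNA alone the median was -1.44, and 12 contraction, 14 adhesion, 3 factor and 0 non-muscle genes were lower. With those below 1% alone 0 of the 35 and 0 genes of each of the 4 related lists were called, in a fit of 4 libraries against 1 that called 0 genes in all and gave 3730 genes an unadjusted p under 0.05. Among other subsets, leaving out 1 library gave 19 to 24 lower contraction genes, 22 to 27 adhesion genes, 11 to 14 factors, 4 to 6 non-muscle genes, and 11 to 13 pairs. The values with the label number as a term rest on p57KO 1 and 2 against p57WT 1. The cause of each change was not tested.

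The replicate numbers gave no pairing: same-numbered libraries of the genotypes had correlated deviations of 0.20, 0.05, -0.13, -0.12 and 0.15. With the replicate number as a block, 35 genes were called lower and the median was -2.44. In the pairs of genes the paired test with the block called 0 of 15, because its smallest possible p, 0.0625, exceeds the threshold.

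Depth limits Sgca most, with 49 counts over the 5 p57KO libraries.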

Other observations

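Genes usually taken as striated muscle markers were also present. Those in the table, 16 genes, summed to 134 to 578 CPM in p57KO and 741 to 1326 CPM in p57WT. Of 15 tested, 6 were lower and 1 higher in p57KO, beside 17.2% and 19.3% of all genes. Actn2, the alpha-actinin of the sarcomere, lay between 0.0860 and 3.39 CPM in p57KO and between 8.24 and 28.4 CPM in p57WT (edgeR log2 fold change -3.62, SE 0.69, adjusted p = 0.00204). Ckm, muscle creatine kinase, lay between 6.45 and 87.0 CPM in p57KO and between 101 and 335 CPM in p57WT (edgeR log2 fold change -2.41, SE 0.57, adjusted p = 0.00641). Mylpf, a fast skeletal light chain, was the gene that was higher (edgeR log2 fold change 1.61, SE 0.36, adjusted p = 0.00515).

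Markers of the interstitial cells of Cajal, the pacemaker cells that lie within the gut muscle, included lower and higher genes under the scaling used here. Gjc1, a gap junction gene shared with smooth muscle, and Ano1, the pacemaker chloride channel, had log2 fold changes of -2.03 (SE 0.31, edgeR adjusted p = 0.000661) and -1.90 (SE 0.46, adjusted p = 0.00716). Etv1 and Kit had log2 fold changes of 1.2 (SE 0.29, adjusted p = 0.00653) and 1.32 (SE 0.37, adjusted p = 0.0149). With libraries scaled to epithelial markers neither was called, at -0.0635 for Etv1 (adjusted p = 0.897) and -0.0485 for Kit (adjusted p = 0.937). That scaling moved the median of all genes tested from 0.08 to -1.24. The summed level of the 6 markers overlapped between the genotypes, at 122 to 343 CPM in p57KO and 194 to 311 CPM in p57WT.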
